A study of Homo sapiens with 48 samples.

Results

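Guide RNAs against 4 tubulin genes and 1 tubulin-binding gene were followed in a pooled CRISPR knockout screen of human squamous carcinoma cells. The genes were the beta tubulins TUBB and TUBB4B, the alpha tubulins TUBA1B and TUBA1C, and STMN1, which encodes stathmin. They were taken by name, and all 5 were present among the 327 genes of each of the 5 tables. Of the 5, TUBB4B had the smallest p for a difference between lines: its knockouts were above the median gene in 16 of 16 SCC13 tumors, below it in 10 of 10 CAL27 tumors and above it in 8 of 8 A431 tumors. TUBB knockouts were below the median gene in 10 of 10 CAL27 tumors and 8 of 8 A431 tumors, while in SCC13 tumors 13 of its 16 values stood at a floor that is described below.

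The cells were SCC13 (SCC-13, a skin squamous carcinoma line), CAL27 (a tongue squamous carcinoma line) and A431 (A-431, an epidermoid carcinoma line), each made to express the Cas9 nuclease by a lentivirus and blasticidin selection. A library against 334 genes with 136 non-targeting guides was delivered by lentivirus at a multiplicity of infection of 0.3, followed by puromycin. SCC13 cells were grown as tumors in NOD.Cg-Prkdcscid Il2rgtm1Wjl/SzJ mice, and CAL27 and A431 cells as tumors in SHO mice, for about 2 months after injection with Matrigel into the rear flanks. CAL27 and A431 cells were also cultured for 3 weeks. The later samples were 16 SCC13 tumors, 10 CAL27 tumors, 2 CAL27 cultures, 8 A431 tumors and 2 A431 cultures, and each had been set against initial cells of the same line, of which the labels list 2 samples per table. Host strain and line cannot be told apart between SCC13 and the other lines. The tables hold guide abundance and no expression, so the identity of the cells was not checked against markers.

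Microtubules are hollow polymers of alpha and beta tubulin dimers that form the mitotic spindle, carry intracellular transport and shape the cell. Humans have several genes for each of the alpha and beta proteins, called isotypes, which are very alike in sequence and differ most in the acidic tail at the end of the protein. Stathmin binds free tubulin dimers, promotes microtubule disassembly and is switched off by phosphorylation when cells enter mitosis. In this screen a guide lost over time gives a value below 0.

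The likeness of the isotypes bears on what a guide can cut, so their coding sequences were read from the GRCh37 genome with the GENCODE release 44 annotation. TUBB lies on chr6:30685212-30693315 on the plus strand and TUBB4B on chr9:140135739-140138159 on the plus strand. TUBA1B lies on chr12:49521565-49525180 on the minus strand and TUBA1C on chr12:49582519-49668383 on the plus strand. STMN1 lies on chr1:26210672-26233482 on the minus strand. Each of the 5 has 4 coding exons in the transcript used. The last 60 coding bases of the beta tubulins before the stop codon, which encode the tail where isotypes differ most, are shown 5′ to 3′ on the coding strand. Capitals mark bases that differ from, or have no partner in, the aligned sequence of the other beta tubulin.
TUBB: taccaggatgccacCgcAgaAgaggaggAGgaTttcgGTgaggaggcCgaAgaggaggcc
TUBB4B: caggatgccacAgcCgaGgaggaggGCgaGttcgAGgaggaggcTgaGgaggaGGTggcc

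Even in the tail TUBB and TUBB4B share most of their bases. Over the whole coding sequence the alpha tubulin genes are more alike than the beta tubulin genes. TUBA1B and TUBA1C were identical at 96.8% of aligned coding bases, with an unbroken shared run of 326 bases. TUBB and TUBB4B were identical at 84.4%, and their longest shared run had 35 bases, shown here because it is the longest stretch in which no guide could tell the beta genes apart.
TUBB and TUBB4B, coding bases 100 to 134: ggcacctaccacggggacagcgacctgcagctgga

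A possible Cas9 site was counted as any 20 bases next to an NGG motif on either strand of the coding sequence. The count covered sites lying wholly within a coding exon. Of 214 such sites in TUBA1B, 70.1% were also in TUBA1C, and these were 71.1% of the 211 sites of TUBA1C. Of 197 sites in TUBB, 3.55% were also in TUBB4B, or 3.00% of the 233 sites of TUBB4B. The genome also holds other tubulin genes and processed copies. An exact second site somewhere in the genome was found for 90.7% of the sites in TUBA1B, 82.5% in TUBA1C, 69.0% in TUBB and 48.1% in TUBB4B, against 2.56% of the 39 sites in STMN1. The guide sequences are not used here. Whether a guide named for one isotype also matched another, or cut at more than 1 place, was not tested, and each value below is that of the gene name in the table.

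**Figure D1:**
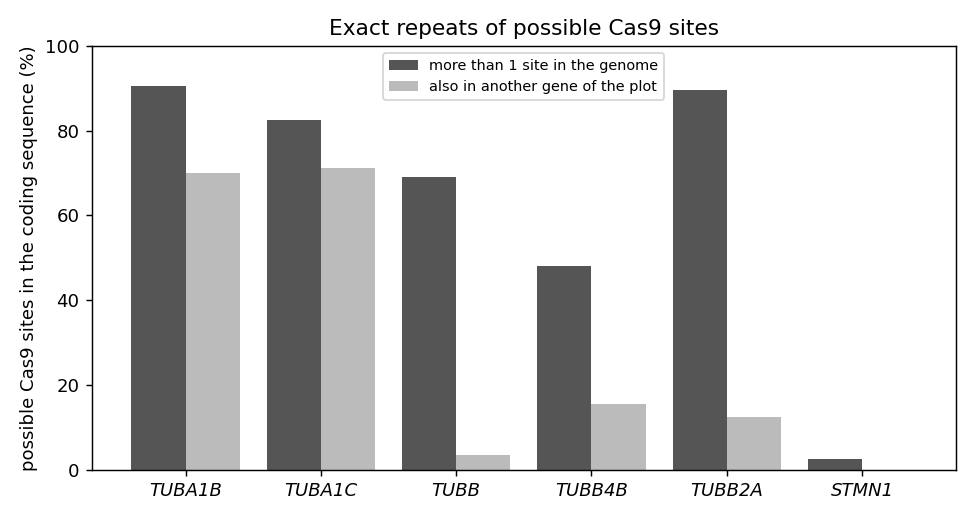
Share of possible Cas9 sites (20 bases next to NGG, in percent) in the coding sequence of each tubulin gene and STMN1 that occur exactly at more than 1 place in the GRCh37 genome (dark bars) or in another gene of the plot (light bars). The alpha tubulins and TUBB2A, another beta tubulin of the library, have the tallest dark bars, and STMN1 has 1 such site of 39.

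Values are log fold changes of a gene's guides against the initial cells, of unstated log base, called log units here. They were set to the median of the 327 genes in each tumor or culture, because the median gene lay at different levels against the non-targeting guides. It lay between -2.67 and 0.53 log units in SCC13 tumors, between -1.50 and -0.56 in CAL27 tumors and between -0.55 and -0.07 in A431 tumors. Relative to the median gene, limma (Benjamini-Hochberg adjusted p under 0.05) called 78 genes lower and 77 higher in SCC13 tumors, 72 and 61 in CAL27 tumors, and 39 and 26 in A431 tumors. Measured from the non-targeting guides instead, these splits were 220 lower and 13 higher, 164 and 18, and 73 and 7. The files give no read counts, so depth is unknown. In 101 of 120 pairs of SCC13 tumors, at least 4 genes shared one and the same difference between the tumors to 6 decimals, which was so in 6 of 45 pairs in CAL27 and 0 of 28 in A431. Such values hold no difference particular to a gene between those tumors and are called floor values. Between 8 and 140 genes per SCC13 tumor stood at the floor, among them 39 of the values of the 5 genes.

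**Figure D2:**
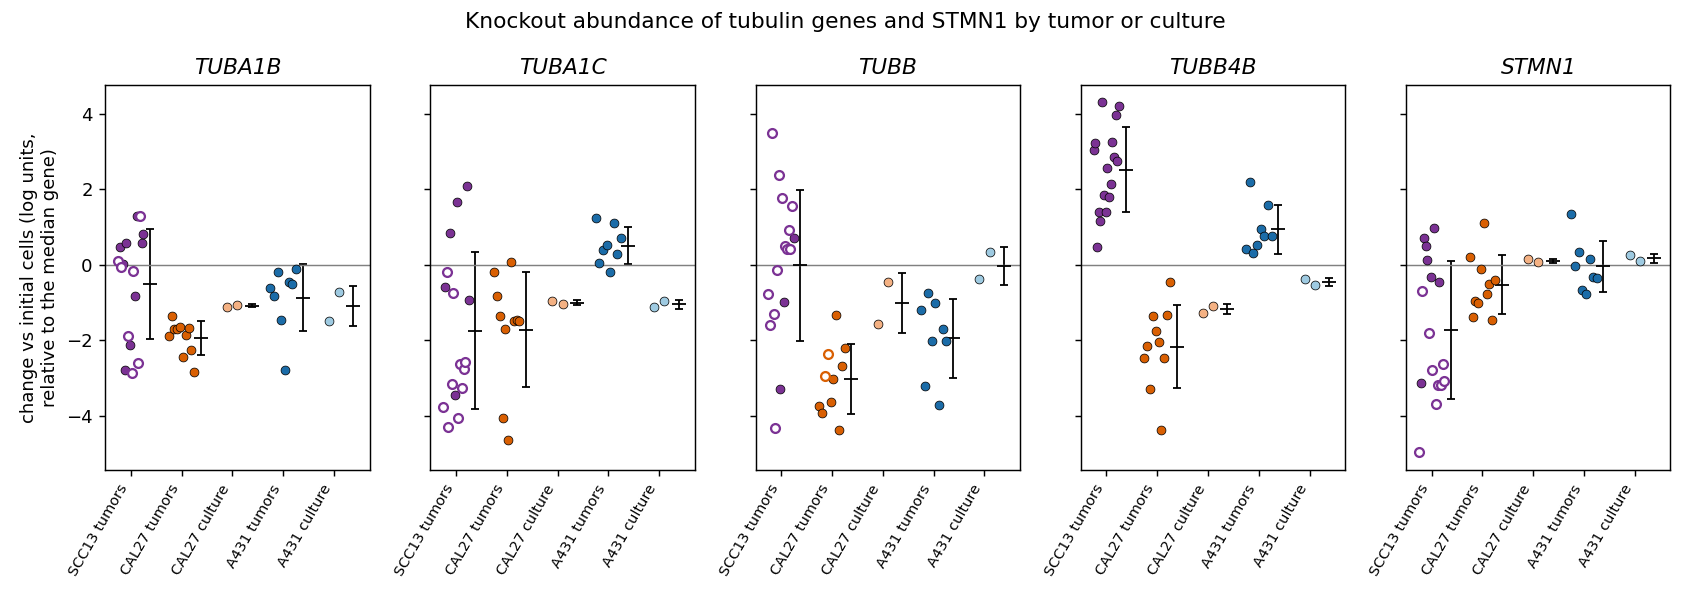
Change against the initial cells relative to the median gene (log units) for each gene, with 1 point per tumor or culture and the mean ± SD beside them. Open points are floor values. TUBB4B lies above 0 in every SCC13 and A431 tumor and below 0 in every CAL27 tumor, and 13 of 16 TUBB values in SCC13 tumors are open.

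TUBB4B encodes a beta tubulin made in most tissues. In SCC13 tumors its lowest value was 0.48, its median 2.65 and its highest 4.30 log units, and no value stood at the floor. In CAL27 tumors they were -4.37, -2.11 and -0.45, and in A431 tumors 0.31, 0.75 and 2.18. The SCC13 and A431 tumors therefore all lay on the other side of the median gene from the CAL27 tumors. The mean was 2.52 ± 1.13 in SCC13 tumors (SD, n = 16, limma adjusted p = 1.02e-06), where 23.5% of all genes were called higher. It was -2.17 ± 1.09 in CAL27 tumors (n = 10, limma adjusted p = 4.48e-05), where 22.0% were called lower, and 0.93 ± 0.64 in A431 tumors (n = 8, limma adjusted p = 0.0121), where 7.95% were called higher. Being on one side in every tumor was seen for 4.28% of genes above in SCC13, 11.3% below in CAL27 and 5.81% above in A431. The rise was relative to the median gene: against the non-targeting guides the mean was 0.90 in SCC13 tumors (limma adjusted p = 0.0702, above 0 in 14 of 16) and 0.66 in A431 tumors (above 0 in 7 of 8), and neither passed. TUBB4B was the highest of the 5 genes in 14 of 16 SCC13 tumors and in 5 of 8 A431 tumors.

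In culture TUBB4B stood at -1.27 and -1.08 in CAL27 and at -0.39 and -0.53 in A431. Neither culture of either line was above the median gene. CAL27 cultures passed (-1.17 ± 0.13, n = 2, limma adjusted p = 0.00739), among the 18.7% of genes called lower there, and A431 cultures did not (-0.46 ± 0.10, n = 2, limma adjusted p = 0.0775).

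TUBB encodes the beta tubulin that most dividing cells rely on. In A431 tumors its values were -1.19, -3.20, -0.75, -2.03, -1.02, -3.70, -1.70 and -2.02 log units, with a mean of -1.95 ± 1.04 (SD, n = 8, limma adjusted p = 0.000799), among the 11.9% of genes called lower. It was the lowest of the 5 genes in 7 of these 8 tumors. In CAL27 tumors the lowest value was -4.36, the median -2.99 and the highest -1.33, with a mean of -3.02 ± 0.92 (n = 10, limma adjusted p = 5.58e-07) and 2 floor values. TUBB was thus below the median gene in every tumor of both lines, as were 6.12% of all genes in A431 and 11.3% in CAL27. In culture TUBB was -1.57 and -0.45 in CAL27 (limma adjusted p = 0.125) and -0.38 and 0.33 in A431 (limma adjusted p = 0.93), so the cultures of a line differed from each other by more than their mean differed from the median gene.

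In SCC13 tumors TUBB had a lowest value of -4.31, a median of 0.42 and a highest of 3.48, with 7 tumors below and 9 above the median gene. The mean of -0.02 ± 2.01 (n = 16) did not pass (limma adjusted p = 0.968). However, 13 of the 16 values stood at the floor, and these alone spanned -4.31 to 3.48. The value of TUBB minus that of DUT, a dUTP-hydrolysing enzyme, was the same 3.39 log units in 9 tumors, a pair chosen after its values were seen. The 3 values that were not floor values stood at -3.30, -0.98 and 0.71, with a mean of -1.19 ± 2.02. Against the non-targeting guides the mean was -1.64 (limma adjusted p = 0.00341), among the 67.3% of genes called lower on that scale. The high TUBB values were in tumors whose floor itself was high: in value column 3, floor values ran from -1.50 to 5.61 and TUBB stood at 3.48.

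**Figure D3:**
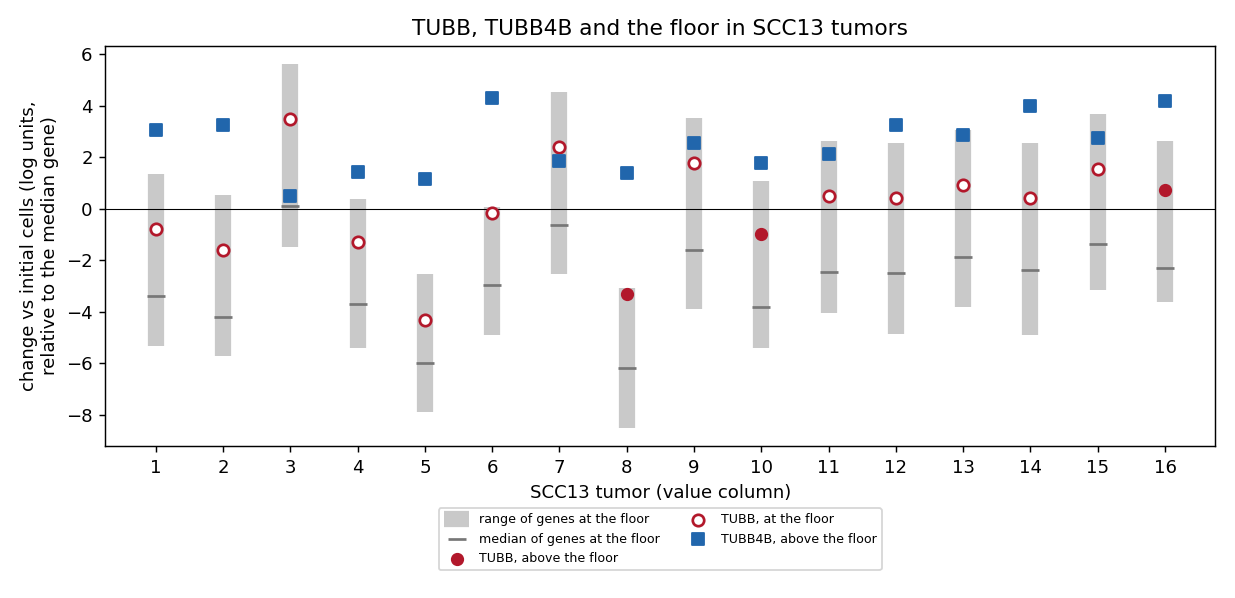
TUBB (circles) and TUBB4B (squares) in each of the 16 SCC13 tumors, relative to the median gene (log units), over the range of the genes at the floor (grey bars, median as a line). Open circles are floor values. Filled points are not floor values, whether or not they lie above the grey bars. TUBB is at the floor in 13 tumors and TUBB4B in none, though TUBB4B lies within the grey bars in some tumors. In value columns 3 and 7 TUBB4B (0.48 and 1.84) lies below TUBB (3.48 and 2.38).

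The beta isotypes were read in the same tumors, so their difference is free of the centring. TUBB minus TUBB4B was below 0 in 14 of 16 SCC13 tumors, 8 of 10 CAL27 tumors and 8 of 8 A431 tumors. The mean was -2.54 ± 2.19 in SCC13 tumors (exact sign-flip permutation p = 0.000885, two-sided, adjusted over 6 tests 0.00531). Since the TUBB values there are mostly floor values, its size was not measured, and the exceptions were value columns 3 and 7 at 3.00 and 0.54, which had the most floor genes (136 and 140). In CAL27 tumors it was -0.85 ± 1.52 (exact permutation p = 0.115, adjusted 0.138), and in A431 tumors -2.88 ± 1.45 (exact permutation p = 0.0078, the smallest that 8 tumors allow, adjusted 0.0156). In A431 tumors 7438 of all 53301 gene pairs kept one order in every tumor. Of the CAL27 tumors, value column 7 stood apart at 3.03, with TUBB at its highest (-1.33) and TUBB4B at its lowest (-4.37), and without it the mean was -1.28. In culture the difference was 0.63 and -0.31 in CAL27 and 0.85 and 0.00 in A431, where 2 cultures allow no p below 0.5. The difference was smaller in size in CAL27 than in A431 tumors: CAL27 minus A431 was 2.03 (exact permutation p = 0.00375, adjusted over 6 tests 0.0225). SCC13 minus A431 was 0.35 (exact permutation adjusted p = 0.698) and SCC13 minus CAL27 was -1.69 (permutation p = 0.0424, adjusted 0.0847), and neither passed the adjustment.

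**Figure D4:**
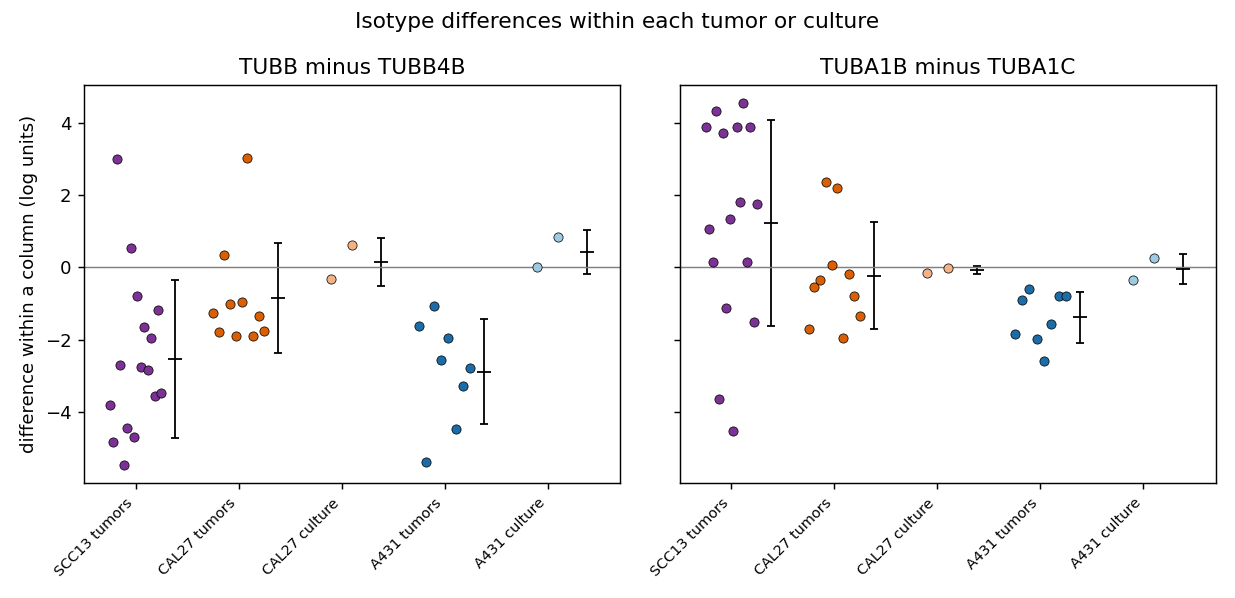
Difference between isotypes within each tumor or culture (log units), with 1 point per tumor or culture and the mean ± SD beside them. Left, TUBB minus TUBB4B is below 0 in 8 of 8 A431 tumors, and right, TUBA1B minus TUBA1C is below 0 in the same tumors and scattered on both sides of 0 in SCC13 and CAL27 tumors.

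TUBA1B and TUBA1C encode the alpha tubulins most used by dividing cells outside the nervous system. In culture both were below the median gene in both lines. TUBA1B stood at -1.11 and -1.05 in CAL27 cultures (-1.08 ± 0.04, limma adjusted p = 0.00733) and at -1.48 and -0.72 in A431 cultures (-1.10 ± 0.53, limma adjusted p = 0.0461). TUBA1C stood at -0.95 and -1.05 in CAL27 cultures (-1.0 ± 0.07, limma adjusted p = 0.00739) and at -1.13 and -0.97 in A431 cultures (-1.05 ± 0.11, limma adjusted p = 0.0129). Both genes passed in both lines, where 18.7% of genes were called lower in CAL27 culture and 11.3% in A431 culture. With either CAL27 culture left out, TUBA1B stayed at -1.11 or -1.05 while the limma adjusted p was up to 0.134. In that fit the lone culture was assumed to vary like the A431 cultures.

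In tumors the alpha isotypes parted in A431. TUBA1B values in A431 tumors were -0.61, -0.84, -0.20, -1.46, -2.78, -0.46, -0.51 and -0.11. The mean was -0.87 ± 0.88 (n = 8, limma adjusted p = 0.0392), among the 11.9% of genes called lower. That call rested on most of the tumors together, since leaving out any 1 of value columns 1, 2, 4, 5 or 7 raised the adjusted p to as much as 0.0845. TUBA1C values in the same tumors were 1.23, 0.05, 0.40, 0.51, -0.21, 1.11, 0.28 and 0.69, with a mean of 0.51 ± 0.49 (limma adjusted p = 0.0901). TUBA1C was thus above the median gene in 7 of 8 tumors and did not pass. TUBA1B minus TUBA1C was below 0 in 8 of 8 A431 tumors, at -1.38 ± 0.71 (exact sign-flip permutation p = 0.0078, the smallest possible, adjusted over 6 tests 0.0156).

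In CAL27 tumors knockouts of both alpha isotypes were called lower, as were 22.0% of all genes. TUBA1B had a lowest value of -2.83, a median of -1.79 and a highest of -1.37, with a mean of -1.94 ± 0.44 (n = 10, limma adjusted p = 1.18e-05). Its SD was the smallest of the 5 genes in that table. TUBA1C had a lowest value of -4.65, a median of -1.48 and a highest of 0.08, with a mean of -1.72 ± 1.52 (limma adjusted p = 0.00204) and 9 of 10 tumors below the median gene. Value columns 4 and 6 stood lowest for TUBA1C, at -4.06 and -4.65. The difference between the isotypes was -0.22 ± 1.47 and did not pass (exact permutation adjusted p = 0.633).

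In SCC13 tumors TUBA1B had a lowest value of -2.87, a median of -0.02 and a highest of 1.30, with 7 floor values and a mean of -0.51 ± 1.47 (n = 16, limma adjusted p = 0.377). TUBA1C had a lowest value of -4.31, a median of -2.61 and a highest of 2.09. Its mean was -1.74 ± 2.07 (limma adjusted p = 0.0013), among the 23.9% of genes called lower. TUBA1C was below the median gene in 13 of 16 tumors and at the floor in 10. With floor values dropped from the fit, the 6 values left averaged -0.07 ± 2.05 and did not pass (limma adjusted p = 0.951). The TUBA1C values dropped were all below the median gene (-4.31 to -0.21), so this fit does not decide whether the loss holds. TUBA1B minus TUBA1C was above 0 in 12 of 16 tumors, at 1.23 ± 2.84, and did not pass (exact permutation p = 0.102, adjusted 0.138). It was the same 3.89 in value columns 1, 10 and 14 and the same 0.15 in value columns 3 and 13. Both genes stood at the floor in these tumors, so its size was not measured there, though the test took each as a separate value. SCC13 minus A431 for TUBA1B minus TUBA1C was 2.61 (permutation adjusted p = 0.06), CAL27 minus A431 was 1.16 (adjusted p = 0.0853) and SCC13 minus CAL27 was 1.46 (adjusted p = 0.179). The contrasts with SCC13 include these floor values.

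STMN1, the microtubule destabiliser, was near the median gene in A431 and CAL27. In culture it stood at 0.14 and 0.07 in CAL27 and at 0.26 and 0.09 in A431, and neither line passed. In CAL27 tumors it had a lowest value of -1.47, a median of -0.64 and a highest of 1.10, with a mean of -0.53 ± 0.78 and 8 of 10 tumors below the median gene (limma adjusted p = 0.176). Against the non-targeting guides the CAL27 tumor mean was -1.35 and passed (limma adjusted p = 0.000934), among the 50.2% of genes called lower on that scale. In A431 tumors the mean was -0.04 ± 0.68 (limma adjusted p = 0.901), with values between -0.78 and 1.34. Of the 5 tables STMN1 passed, relative to the median gene, in SCC13 tumors alone: the lowest value was -4.96, the median -2.22 and the highest 0.96, with a mean of -1.73 ± 1.83 (n = 16, limma adjusted p = 0.00114), among the 23.9% of genes called lower. It was below the median gene in 12 of 16 tumors, and 9 of its values stood at the floor. With floor values dropped from the fit, the 7 values left averaged -0.23 ± 1.38 and did not pass (limma adjusted p = 0.818). The values dropped were all below the median gene (-4.96 to -0.70). Leaving them out takes away low values only and does not decide whether the loss holds.

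Tumors were next set against culture within a line. Setting, time (about 2 months against 3 weeks) and the initial samples, which were separate, cannot be told apart here. No gene of the table passed in either line when tumors and cultures shared 1 spread (0% called), although 20 genes in A431 and 30 in CAL27 had an unadjusted p under 0.05. In A431, TUBA1C was 1.56 log units higher in tumors than in culture (SE 0.42, limma adjusted p = 0.187), with 8 of 8 tumors above both cultures. TUBB4B was 1.39 higher (SE 0.47, limma adjusted p = 0.298), also with 8 of 8 tumors above both cultures, as were 6.73% of all genes. TUBB differed by -1.92 (SE 0.66, limma adjusted p = 0.298), with 8 of 8 tumors below both cultures, as were 2.45% of all genes. When each setting had its own spread these 3 genes passed (adjusted p = 0.00107 for TUBA1C, 0.00397 for TUBB4B and 0.00561 for TUBB), among 3.36% of genes called lower and 4.28% called higher. TUBA1B and STMN1 differed by 0.23 and -0.22 and passed in neither fit.

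In CAL27 the tumor minus culture difference was -2.01 for TUBB (SE 0.75, limma adjusted p = 0.31), -1.0 for TUBB4B, -0.86 for TUBA1B, -0.71 for TUBA1C and -0.64 for STMN1. TUBA1B was below both cultures in 10 of 10 tumors, as were 2.45% of all genes, and TUBB and TUBB4B were each below both in 9 of 10. With an own spread per setting TUBB, TUBB4B and TUBA1B passed (adjusted p = 0.00224, 0.048 and 0.0294), among 14.4% of genes called lower. The SD over all genes was 1.09 to 2.23 in CAL27 tumors and 0.57 and 0.59 in CAL27 cultures, and with columns divided by their SD the differences of TUBA1B, TUBA1C and TUBB4B turned positive (0.67, 0.72 and 0.75), that of TUBB was -0.11 (limma adjusted p = 0.954), and none passed. TUBB4B thus had tumor minus culture differences of opposite sign in A431 and CAL27 with columns not divided, and the difference between those differences was not tested.

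The same genes were then compared between the tumors of the 3 lines in 1 fit, whose moderated F test called 26.6% of all genes. TUBB4B (limma adjusted F p = 2.35e-10), TUBB (0.000386) and TUBA1C (0.0167) passed it, while STMN1 (0.0559) and TUBA1B (0.0958) did not. TUBB4B was 4.69 log units higher in SCC13 than in CAL27 tumors (SE 0.52, limma adjusted p = 3.46e-11), with no overlap between the tumors of the lines. CAL27 minus A431 tumors was -3.10 (limma adjusted p = 0.000914), again with no overlap, and SCC13 minus A431 tumors was 1.59 (limma adjusted p = 0.033). Groups without overlap were seen for 0.612% of all genes between SCC13 and CAL27 and 0.917% between CAL27 and A431. TUBB4B thus had its highest mean in SCC13 and its lowest in CAL27. The tumors of SCC13 and A431 overlapped, and their difference did not pass against the non-targeting guides (0.24, limma adjusted p = 0.736) or with columns divided by their SD (0.11, limma adjusted p = 0.859), so the order of these lines is not settled.

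TUBB was 3.00 higher in SCC13 than in CAL27 tumors (limma adjusted p = 0.000211), among 9.79% of genes called higher, and 1.93 higher in SCC13 than in A431 tumors (limma adjusted p = 0.0259), among 10.4%. Both rest largely on TUBB values at the SCC13 floor. With floor values dropped they were 1.92 (limma adjusted p = 0.103) and 0.76 (limma adjusted p = 0.581). Only 3 of 16 SCC13 values of TUBB were then left, so this does not decide whether the calls hold. SCC13 minus CAL27 tumors was 1.43 for TUBA1B, -1.19 for STMN1 and -0.03 for TUBA1C (limma adjusted p = 0.0505, 0.137 and 0.969). TUBA1B passed with floor values dropped (0.0246) and with columns divided by their SD (0.015). The 7 SCC13 values dropped ran from -2.87 to 1.30, and the SCC13 mean was -0.22 without them and -0.51 with them. TUBA1B did not pass against the non-targeting guides (0.479) or with an own spread per line (0.0506). SCC13 minus A431 tumors was -2.25 for TUBA1C (limma adjusted p = 0.0129) and -1.68 for STMN1 (limma adjusted p = 0.0386), among 10.7% of genes called lower. With floor values dropped these were -0.57 and -0.19, and neither passed. For both genes the SCC13 values dropped were all below the median gene, so this does not decide whether the calls hold. When each of the 34 tumors was left out in turn, the SCC13 minus A431 call held 34 times for TUBA1C, 32 times for TUBB, 27 times for TUBB4B and 18 times for STMN1. CAL27 minus A431 tumors was -2.22 for TUBA1C (limma adjusted p = 0.0659), and -1.07 for both TUBB and TUBA1B, which did not pass. In that contrast 3.06% of genes were called lower, TUBB4B alone among the 5. TUBA1C did pass in it under each of the 4 other settings. The limma adjusted p was 0.0223 against the non-targeting guides and 0.00161 with columns divided by their SD. With an own spread per line it was 0.000325, and with floor values dropped 0.0393. TUBA1C had no floor value in CAL27 or A431 tumors, so dropping them left its difference at -2.22. Only the spread shared with SCC13 changed, so that setting is no separate check. Shares over all genes were not counted under these 4 settings. In culture CAL27 minus A431 was -0.72 for TUBB4B (limma adjusted p = 0.051), -0.98 for TUBB (0.213) and between -0.07 and 0.05 for the other genes, and none of the 5 passed, against 2.75% of all genes called lower and 0.306% called higher.

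A list of 74 other genes held microtubule, kinetochore and spindle genes, and also others such as CCNB1, CDK1, UBE2C and ARL6IP1. Of this list, called the spindle list, 17 genes were in the library. In SCC13 tumors 9 were lower, 3 higher and 5 did not pass, with a list median of -1.20 against -0.02 for all genes, of which 23.9% were called lower and 23.5% higher. In CAL27 tumors 9 were lower, none higher and 8 did not pass (list median -0.90, all genes 0.01 with 22.0% called lower). In A431 tumors 5 were lower, none higher and 12 did not pass (list median -0.23, all genes 0.02 with 11.9% called lower). The list thus held called genes in the lower direction in each line. CCNB1, the mitotic cyclin, and UBE2C, a ubiquitin-conjugating enzyme of the anaphase-promoting complex, were lower in the tumors of all 3 lines, at -0.99 ± 0.87 and -1.77 ± 1.45 in A431 tumors. TPX2, which nucleates spindle microtubules, was lower in SCC13 and CAL27 tumors and in the cultures of both lines, and RANBP1, a regulator of the Ran GTPase, in SCC13 and A431 tumors and A431 culture. In SCC13 tumors these genes stood largely at the floor: TPX2 in 14 of 16 tumors, CCNB1 and UBE2C in 12 and RANBP1 in 9. With floor values dropped from the fit, 2 list genes were lower there and 2 higher, with no share over all genes counted. The values dropped for CCNB1 and RANBP1 were all below the median gene, so this count does not decide whether their loss holds. Of the 3 higher in SCC13 tumors, BIRC5 (survivin, of the chromosomal passenger complex) was at the floor in 14 of 16. The other genes, ARL6IP1 and NUSAP1, a spindle protein, had no floor value in the 16 tumors (1.35 ± 1.96 and 1.58 ± 2.35). In culture 8 list genes were lower in CAL27 (18.7% of all genes) and 4 in A431 (11.3% of all genes), and none was higher.

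Over all 38 tumors and cultures, with each column divided by its SD, the genes whose values correlated best with each of the 5 were listed as a description. They were BIRC5 (Pearson r = 0.72), SMC4 (0.71) and CDKN2B (0.71) for TUBB, and KLF7 (0.69), PTRF (0.68) and DUT (0.67) for TUBB4B. For TUBA1B they were PFN1 (0.60), MYC (0.58) and SMC4 (0.54), for TUBA1C SLC2A1 (0.70), YBX1 (0.64) and BTF3 (0.56), and for STMN1 NDRG1 (0.50), KRT6C (0.49) and DSC3 (0.46). These lists were drawn from genes outside the 5. Among the 5 the highest correlation was 0.52, between TUBA1B and TUBB4B. TUBB and TUBB4B correlated at 0.39 and TUBA1B and TUBA1C at 0.19. Points share lines, initial cells and, in SCC13, the floor.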

How the data were processed

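The members and gene lists were chosen with earlier results of these data known. Bowtie2 is named in the submitters' processing notes. Its version, the log base, the pseudocount and how guides were combined are not known from the sources used here. For each line and setting the authors deposited log fold changes per gene, a unit other than counts, with 1 value column per later sample and no column names. The non-targeting row is 0 throughout, so deposited values are relative to it. Depth is unknown, and no interval that needs it is given. Columns carry no replicate numbers, and each stands for 1 tumor or culture. Mice are not named in the labels, so tumors may share one, and p-values measure the spread between these samples only, and the error of the initial cells is in no test.

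Each column was centred on its median over 327 genes. Tables were fitted with limma 3.58.1 (R 4.3.3, lmFit, eBayes) against 0, with Benjamini-Hochberg adjustment over the 327 genes at 0.05. Tumors against culture, and lines, were fitted together. Isotype differences were tested by exact two-sided sign-flip tests, and between lines by permutation tests (exact, or 100000 resamples for SCC13 minus CAL27), 6 of each adjusted together. A floor value is one whose difference between a pair of columns is shared, to 6 decimals, by 4 or more genes. The fits were tested on simulated data. The named genes are the 5 members, called spindle list genes and the 3 best correlated genes of each member. Sequences were read from GRCh37 with the GENCODE release 44 annotation and aligned with Biopython 1.88.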

Additional observations from a re-analysis of the deposited data

Results flagged for a closer look

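Of 14 groups of 4 to 10 samples tested for a sample far from the others, 1 stood out, where chance gives about 1 in 20. In CAL27 tumors the TUBB minus TUBB4B difference of value column 7 was 3.03 log units, and its gap to the next tumor was 0.547 of the whole range.

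Differences between lines that passed their test were as follows. In SCC13 minus A431 tumors they were -2.25 for TUBA1C, 1.93 for TUBB, 1.59 for TUBB4B and -1.68 for STMN1. In SCC13 minus CAL27 tumors they were 3.00 for TUBB and 4.69 for TUBB4B. In CAL27 minus A431 tumors TUBB4B differed by -3.10, and the TUBB minus TUBB4B difference by 2.03. Of these, the TUBB, TUBA1C and STMN1 values involving SCC13 rest in part on floor values (13, 10 and 9 of 16), and the TUBB4B values on none.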

How the results depend on the processing

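Counts below are of the 5 genes, unless the spindle list is named. Measured from the non-targeting guides, the counts lower became 5 in CAL27 culture and CAL27 tumors, 3 in A431 culture, 4 in SCC13 tumors, 1 in SCC13 minus CAL27 tumors, 2 in CAL27 minus A431 tumors and 1 in CAL27 minus A431 culture. The counts higher became 0 in SCC13 tumors, A431 tumors and SCC13 minus A431 tumors. The spindle list then had 14 lower and 0 higher in SCC13 tumors, 17 lower in CAL27 culture and 10 lower in A431 culture. On this scale 67.3% of all genes were lower in SCC13 tumors and 50.2% in CAL27 tumors. Higher were 3.98% in SCC13 tumors and 2.14% in A431 tumors. The median gene itself lay at -0.49 and -0.47 in CAL27 cultures. Shares over all genes were not counted for culture or between lines, so those counts cannot be read as particular to these genes. Single values that changed sign were STMN1 at -0.38 in CAL27 culture and -0.19 in A431 culture, TUBA1B at -0.98 in SCC13 minus A431 tumors, and TUBA1B and TUBA1C at -0.097 and -0.068 in CAL27 minus A431 culture.

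With columns divided by their SD, 1 gene was lower in A431 culture, 1 lower and 2 higher in A431 tumors minus culture, 1 lower and 1 higher in SCC13 minus A431 tumors, and 2 lower in CAL27 minus A431 tumors. The spindle list had 5 lower in CAL27 culture and 1 higher in CAL27 tumors. Shares over all genes were not counted with columns divided by their SD, so these counts cannot be read as particular to these genes. In SD units, sign changes were TUBB at 0.013 in SCC13 tumors, STMN1 at 0.021 in A431 tumors, TUBA1C at 0.27 in SCC13 minus CAL27 tumors, TUBB at 0.16 in CAL27 minus A431 tumors, and TUBA1B, TUBA1C and TUBB4B at 0.67, 0.72 and 0.75 in CAL27 tumors minus culture. TUBB minus TUBB4B became 1.93 in SCC13 minus A431 and -0.46 in SCC13 minus CAL27, and TUBA1B minus TUBA1C 1.38 in CAL27 minus A431, each across an unadjusted p of 0.05.

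With an own spread per setting, 1 gene was lower and 2 higher in A431 tumors minus culture and 3 lower in CAL27. Of all genes, 3.36% were lower and 4.28% higher in A431 and 14.4% lower in CAL27 in that fit. With an own spread per line, 3 were lower in CAL27 minus A431 tumors. Without floor values, 0 were lower in SCC13 tumors and in SCC13 minus A431 tumors, with 1 higher in the second, 2 were lower in CAL27 minus A431 tumors, and the spindle list had 2 lower in SCC13 tumors. TUBA1C and STMN1 then turned to 1.65 and 0.30 in SCC13 minus CAL27 tumors. Their SCC13 floor values were all below the median gene, so only low values were dropped. In the same contrast TUBB, with 3 of 16 SCC13 values left, no longer passed (limma adjusted p = 0.103). TUBA1B did pass (limma adjusted p = 0.0246), with 7 SCC13 values of -2.87 to 1.30 dropped. Shares over all genes were not counted with an own spread per line or without floor values, so those counts cannot be read as particular to these genes. Leaving out SCC13 tumors with over 100 floor genes, chosen after seeing the data, kept 2 lower and 1 higher. Under the exact sign-flip test of every gene, 0 members and 0 spindle list genes passed in A431 tumors, where 0 of 327 genes passed and 100 had an unadjusted p under 0.05.

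Leaving out 1 tumor or culture at a time gave these ranges, for which shares over all genes were not counted. The genes called lower numbered 1 to 2 in A431 tumors (1 without value column 1, 2, 4, 5 or 7), 1 to 2 in SCC13 minus A431 tumors and 1 to 2 in CAL27 minus A431 tumors (2 without CAL27 value column 7). The genes called higher in SCC13 minus A431 tumors numbered 0 to 2 (0 without A431 value column 6). Spindle list genes called lower numbered 3 to 5 in A431 tumors (3 without value column 1 or 7), and, with 1 culture left and its spread taken from the other line's cultures, 0 to 1 in CAL27 culture and 1 to 4 in A431 culture. That fit has fewer samples, so these counts say nothing of stability. Spindle list genes called higher numbered 0 to 1 in CAL27 tumors (1 without value column 3 or 6). Means that crossed 0 were TUBB in SCC13 tumors (-0.25 to 0.27) and A431 culture (-0.38 to 0.33), STMN1 in A431 tumors (-0.24 to 0.062), TUBA1B in A431 tumors minus culture (-0.15 to 0.61) and TUBA1C in SCC13 minus CAL27 tumors (-0.35 to 0.17). In CAL27 minus A431 culture they were TUBA1B (-0.36 to 0.40), TUBA1C (-0.031 to 0.13) and STMN1 (-0.16 to 0.013). TUBB minus TUBB4B ranged from -1.28 to -0.74 in CAL27 tumors, -0.31 to 0.63 in CAL27 culture, -0.023 to 0.61 in SCC13 minus A431 and -2.06 to -1.25 in SCC13 minus CAL27. TUBA1B minus TUBA1C ranged from 1.01 to 1.62 in SCC13 tumors, -0.35 to 0.25 in A431 culture, 1.23 to 1.84 in SCC13 minus CAL27 and 0.87 to 1.35 in CAL27 minus A431.

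No paired analysis was possible because the value columns carry no replicate numbers. Values at the floor could not be left out in A431 tumors, which had none. Precision is limited by unknown depth and by 2 cultures per line, and in SCC13 tumors by the floor.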

Other observations

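TUBB2A, a beta tubulin abundant in brain and the other tubulin of the library, passed in none of the 5 tables. It stood at -0.57 ± 1.60 log units in SCC13 tumors (n = 16, limma adjusted p = 0.318), at 0.63 ± 0.75 in CAL27 tumors (n = 10, limma adjusted p = 0.105) and at 0.16 ± 0.87 in A431 tumors (n = 8, limma adjusted p = 0.72). In culture it stood at 0.11 and 0.34 in CAL27 and at 0.25 and 0.06 in A431. Its coding sequence was identical to that of TUBB4B at 87.3% of aligned bases and to that of TUBB at 84.6%, and 89.7% of its possible Cas9 sites had an exact second site in the genome.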
